A study of Mus musculus with 40 samples.

Results

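ERVL and ERVL-MaLR elements are long terminal repeat (LTR) retrotransposons of the mouse genome, and their RNA was followed here in stem and progenitor cells of the bone marrow after loss of Dnmt3a, of Sting or of both. The members are the subfamilies whose family in the deposited table of transposable element (TE) counts is ERVL or ERVL-MaLR. They number 221 of 1146 subfamilies, 113 of them ERVL and 108 ERVL-MaLR, within an LTR class of 680. No read was listed for 5 members in any library, 18 had fewer than 100 reads over all libraries and 121 had reads in every library.

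The study set Dnmt3a f/f, Mx1-Cre mice, in which an interferon-inducible Cre deletes Dnmt3a, the enzyme that places new DNA methylation, against wild type. Sting (gene Tmem173) relays the presence of DNA in the cytosol to interferon genes. The 40 libraries, made from bone marrow cells with a modified SMART-Seq2 protocol that amplifies cDNA, fall into 12 groups. Among sorted cells, long-term haematopoietic stem cells (LT-HSC), their short-term counterparts (ST-HSC) and a pool of CMPs and GMPs, the myeloid progenitors (CMP/GMP), each have 4 DNMT3A knockout and 4 wild-type libraries, and megakaryocyte-erythroid progenitors (MEP) have 4 and 3. The c-kit+ bone marrow cells have 2 wild-type, 2 DNMT3A knockout, 2 STING knockout and 3 DNMT3A/STING double knockout libraries. The labels name neither animals, ages, sexes nor the time of induction, and do not say whether the wild-type mice carried Cre, so every p-value reflects the spread among libraries, which may be partly technical.

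An ERVL element has an internal part, which in MERVL still encodes viral proteins, between a pair of LTRs that act as promoters. MERVL (internal part MERVL-int, LTR MT2_Mm) is known for its burst of transcription in the early cleavage embryo, and its LTR drives chimeric transcripts there. MaLR elements (MT, ORR1 and MLT1) encode no protein of their own. MT elements such as MTA_Mm supply promoters in mouse oocytes, while MLT1 and MLT2 are old groups shared by many mammals. In mouse embryonic stem cells MERVL is kept silent by histone methylation and demethylation enzymes such as Ehmt2 and Kdm1a, and other endogenous retroviruses by Trim28, Setdb1 and DNA methylation.

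Libraries held 392006 to 3639178 TE reads and, outside ST-HSC, 3439743 to 47663942 gene reads. Levels are given as RPM, reads per 1000000 gene reads of the library, unless TE reads are named as the base. Dnmt3a fell in c-kit+ Dnmt3a knockout cells, from 79.9 and 91.1 to 48.3 and 48.9 RPM, by 0.81 on the log2 scale (SE 0.131, edgeR adjusted p = 0.0321). Its transcript remained readable in all knockout groups with gene counts, at 15.9 to 33.5 in CMP/GMP, 1.16 to 41.9 in MEP and 41.7 to 119 in LT-HSC. Wild type held 49.8 to 83.0 in CMP/GMP, 29.4 to 49.5 in MEP and 77.2 to 230 in LT-HSC. The ranges overlapped in MEP and in LT-HSC. Tmem173 stood at 9.61 to 11.7 in the Sting-null c-kit+ groups and at 43.8 to 65.1 in the others. Some libraries stood apart. In 5 libraries (MEP knockout replicates 2, 3 and 4, LT-HSC knockout 2 and LT-HSC wild type 1) more than 9 TE reads were counted per 100 gene reads. In the other libraries with gene counts the ratio was 2.22 to 8.16. MEP knockout 2 was the shallowest library in both tables. In 3 pairs of libraries (CMP/GMP wild type 2 and 4, MEP knockout 3 and 4, ST-HSC knockout 3 and 4) the log2 TE counts correlated at 0.983 to 0.993, against 0.719 to 0.939 in the other 42 pairs of sorted replicates. Their counts differed by more than sampling noise, and they were kept as separate libraries. That difference does not show that they came from separate cells or animals. The tests in CMP/GMP, MEP and ST-HSC count each as a replicate, so their p-values may be too small.

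ERVL and ERVL-MaLR reads made up a similar share of TE reads in most groups. The mean share was 10.4% ± 0.0707 (SD, n = 2) in wild-type c-kit+ cells, 10.2% ± 1.23 (n = 4) in wild-type LT-HSC, 10.7% ± 0.421 (n = 4) in wild-type ST-HSC, 9.61% ± 0.473 (n = 4) in wild-type CMP/GMP and 9.0% ± 0.803 (n = 3) in wild-type MEP. The 4 MEP knockout libraries held 9.19%, 7.92%, 5.72% and 6.56%, a mean of 7.35% ± 1.53. The 3 lowest of these are libraries high in TE reads, and the first overlapped the wild-type range. ERVL itself contributed 1.33% to 2.20% of TE reads per library and ERVL-MaLR the rest. None of 13 comparisons of the share passed, with adjusted p from 0.743 to 0.9 in two-sided exact permutation tests. The smallest p that 4 against 4 libraries allow is 0.0286, and 2 against 2 cannot go below 0.333.

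**Figure D1:**
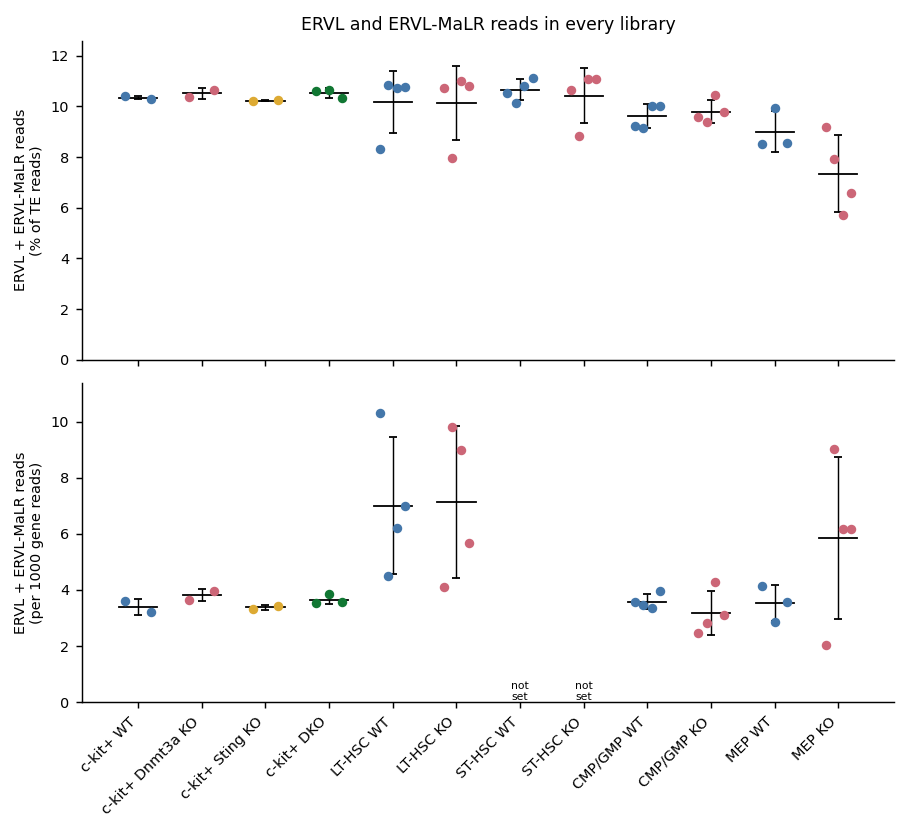
ERVL and ERVL-MaLR reads in each library (points) of the 12 groups, as a percentage of TE reads (top) and per 1000 gene reads (bottom, not set for ST-HSC), with the mean and SD. The share lies between 5.72% and 11.1%, while the level per gene read is higher in wild-type LT-HSC (4.50 to 10.3) than in wild-type CMP/GMP (3.34 to 3.96).

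Counted against gene reads, the family gave higher values in LT-HSC than in progenitors, without passing after adjustment. Wild-type LT-HSC held 10.3, 4.50, 6.2 and 7.0 ERVL and ERVL-MaLR reads per 1000 gene reads. Wild-type CMP/GMP held 3.56, 3.47, 3.34 and 3.96, and wild-type MEP held 4.14, 2.85 and 3.57. The LT-HSC range overlapped neither. The exact permutation p was 0.0286 against CMP/GMP and 0.0571 against MEP, and both were 0.314 after Benjamini-Hochberg adjustment over 11 comparisons, so neither passed. The value of 10.3 came from LT-HSC wild type 1, a library high in TE reads. All TE reads together numbered 4.16 to 12.4 per 100 gene reads in wild-type LT-HSC. They numbered 3.34 to 3.94 in wild-type CMP/GMP and 2.87 to 4.85 in wild-type MEP, so the higher values were not particular to this family. In bulk libraries a change in the mix of cells and a change of RNA per cell cannot be told apart, and gene reads, the denominator, may themselves differ between cell types.

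MT and ORR1 elements supplied most of the reads. Averaged over the 12 groups, the 20 MT members held 35.3% of the reads of all members and the 29 ORR1 members 33.8%. The 59 MLT1 members held 11.1%, and the 8 members named MERVL or MT2 held 9.74%. The 58 members named LTR with a number held 1.81%. The single most abundant member was MTD, with 0.968% of TE reads, followed by MTC with 0.567%, ORR1D1 with 0.368%, ORR1B1 with 0.356% and ORR1A2 with 0.325%. These are read numbers, not levels per length or per copy, and the number of copies differs between subfamilies. MTD had group means of 9136 to 10970 reads per 1000000 TE reads in 11 groups and of 6620 ± 1701 (n = 4) in MEP knockout.

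**Figure D2:**
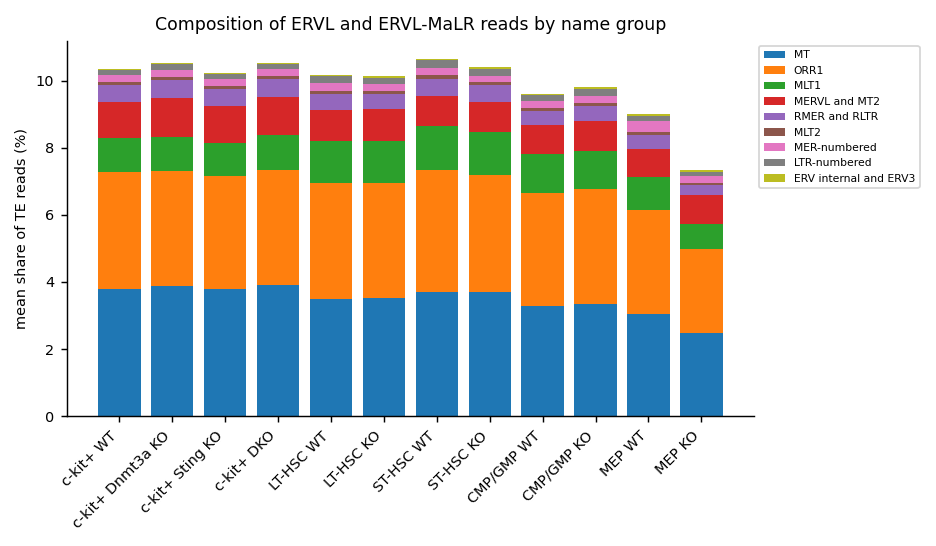
Mean share of TE reads held by each name group of ERVL and ERVL-MaLR subfamilies in the 12 groups. MT (2.47% to 3.90%) and ORR1 (2.51% to 3.63%) make up most of each bar, and the shortest bar is MEP knockout.

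The c-kit+ libraries differed from all sorted populations in how reads were divided between internal parts and LTRs. The 72 internal members held 18.8% to 20.6% of member reads in the 9 c-kit+ libraries and 12.2% to 15.4% in the 31 sorted libraries, with no overlap. MERVL-int was read 2.38 to 2.99 times per MT2_Mm read in c-kit+ cells and 0.473 to 1.44 times in sorted cells. MTA_Mm-int was read 0.955 to 1.08 times per MTA_Mm read in c-kit+ cells and 0.161 to 0.594 times in sorted cells. The pattern was not confined to these families. ERVK, the family of the IAP elements, had 54.9% to 63.8% of its reads in internal parts in c-kit+ cells and 24.7% to 44.3% in sorted cells, whereas the ranges overlapped for ERV1 (64.3% to 72.4% and 27.8% to 79.7%). The c-kit+ cells are a mixed preparation, and whether the 2 kinds of libraries were made in the same way is not given, so cell mix and library preparation cannot be told apart. No test was run between them.

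**Figure D3:**
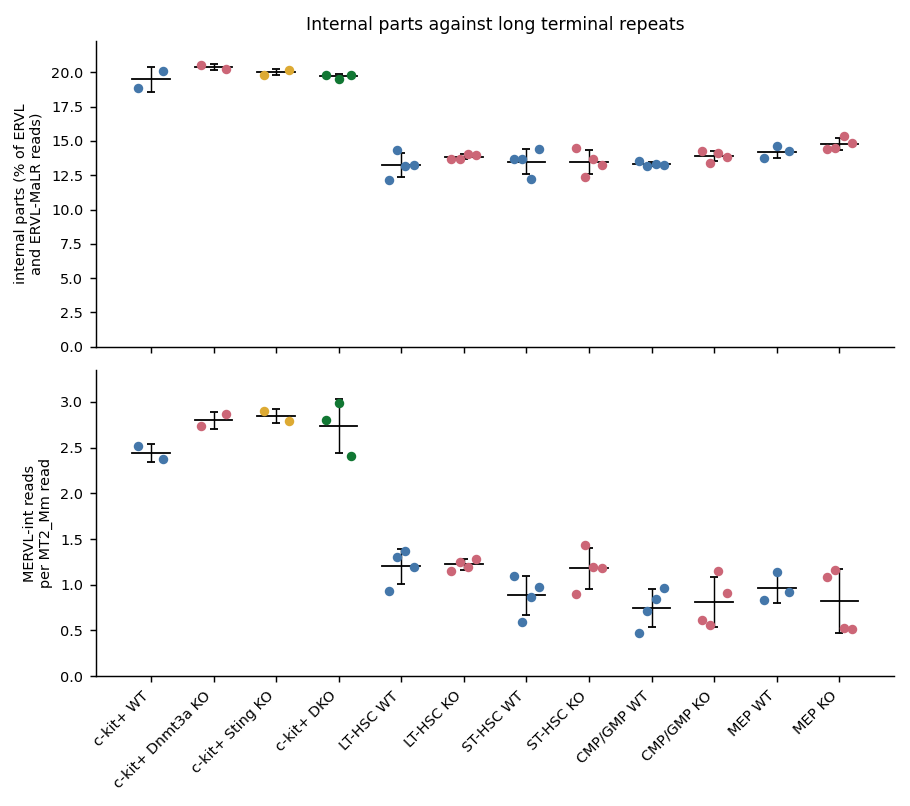
Internal parts as a percentage of ERVL and ERVL-MaLR reads (top) and MERVL-int reads per MT2_Mm read (bottom) in each library, with the mean and SD per group. The c-kit+ libraries lie at 18.8% to 20.6% and 2.38 to 2.99, above every sorted library.

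In c-kit+ cells, loss of Dnmt3a came with more MTB_Mm-int RNA, the internal part of an MT element of the MaLR family. MTB_Mm-int stood at 4.45 and 4.03 RPM in wild type, from 139 and 161 reads, and at 10.4 and 9.59 in Dnmt3a knockout, from 380 and 263 reads. Both knockout libraries lay above both wild-type libraries. With so few libraries this is frequent: 87 of 180 members did not overlap here, in either direction. The share over all TE subfamilies was not counted. It rose by 1.24 on the log2 scale (SE 0.178, edgeR quasi-likelihood adjusted p = 0.00331), and was the 1 member called among 180 tested, where 3 of 916 TE subfamilies (0.328%) were called. The median log2 change of the members was 0.19, beside 0.16 over all TE subfamilies tested, and 151 of the 180 members had a positive value, as did 712 of the 916 TE subfamilies. With library sizes from TE reads the members' median was 0.02 and that of all TE subfamilies -0.01, and without wild type 2 both were 0.08. By name group, 20 of 20 MT members were positive (median 0.16), as were 27 of 28 ORR1 (0.13), 8 of 8 MERVL and MT2 (0.18), 29 of 39 MLT1 (0.13) and 9 of 10 MLT2 members (0.28). Members with an unadjusted p under 0.05 numbered 31 (17.2%), beside 13.5% of all TE subfamilies. The summed level was 3.61 and 3.20 reads per 1000 gene reads in wild type and 3.66 and 3.97 in Dnmt3a knockout, at the smallest p that an exact permutation test of 2 against 2 can give (0.333). The LTR of the same element did not share the size of the change. MTB_Mm stood at 34.7 and 30.1 in wild type and at 37.1 and 39.2 in knockout, without overlap, a log2 difference of 0.24 (SE 0.106, edgeR adjusted p = 0.350).

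The call for MTB_Mm-int depended on the setting. Xist, transcribed from the silenced X of female cells, marked at over 100 RPM both Dnmt3a knockout libraries and double knockout 1, and no other c-kit+ library, so genotype and sex are nearly aligned. Only the double knockout group held both sexes. The sex term in c-kit+ cells therefore rests on double knockout 1 against double knockouts 2 and 3. With sex in the model the log2 difference of MTB_Mm-int was 0.80 and the adjusted p 0.516. With library sizes from TE reads it was 1.09 (adjusted p = 0.119), and without wild type 1 or wild type 2 it was 1.29 (0.0597) or 1.18 (0.181). Several marker lists also separated the wild-type libraries from every mutant. All 7 macrophage markers were found, with a summed level of 1312 to 1434 RPM in wild type, 515 to 553 in Dnmt3a knockout, 302 to 322 in Sting knockout and 319 to 499 in double knockout. The 3 eosinophil markers summed to 3849 to 4124 in wild type and 1250 to 2852 in the mutants, while the 4 markers of mature neutrophils overlapped, at 4058 to 7316 in wild type and 6715 to 20520 in the mutants. The 6 markers of stroma and endothelium summed to 189 to 209 in wild type and 79.7 to 158 in the mutants, the 6 MEP markers to 1131 to 1151 and 518 to 934, and the 6 CMP/GMP markers to 12840 to 13040 and 14400 to 19080. Each macrophage and eosinophil marker was above 0 in every c-kit+ library, and the part of these cells in the result was not tested.

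MERVL-int gave higher values in every mutant c-kit+ library than in wild type, without a call. Wild type held 57.4 and 49.2 RPM of MERVL-int, Dnmt3a knockout 77.3 and 83.9, Sting knockout 64.6 and 69.4, and double knockout 70.7, 86.1 and 66.6. No mutant library overlapped the wild-type range. Of 180 members, 87 did not overlap wild type in Dnmt3a knockout, 49 in Sting knockout and 45 in double knockout, in either direction. The share over all TE subfamilies was not counted. The log2 difference was 0.60 (SE 0.139, edgeR adjusted p = 0.0523) for Dnmt3a knockout and 0.53 (SE 0.128, adjusted p = 0.0697) for double knockout, each against wild type. It was 0.37 (SE 0.138, adjusted p = 0.652) for Sting knockout. These comparisons share the same 2 wild-type libraries, so their shared direction is not independent. For Dnmt3a knockout DESeq2 gave an adjusted p of 0.0134, and over the alternatives the adjusted p ran from 0.0035 to 0.518, with 0.516 when sex was in the model and 0.132 with library sizes from TE reads.

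MT2_Mm, the LTR of MERVL, held 22.8 and 20.7 RPM in wild type and 28.3 and 29.3 in Dnmt3a knockout. The groups did not overlap, with a log2 difference of 0.40 (SE 0.115, edgeR adjusted p = 0.127). MTA_Mm held 144 and 127 in wild type against 144 and 152 in Dnmt3a knockout, so the higher wild-type and the lower knockout library were nearly equal, with a log2 difference of 0.13 (SE 0.120, adjusted p = 0.606). MTA_Mm-int held 137.1 and 136.6 against 153 and 160 (log2 difference 0.19, SE 0.119, adjusted p = 0.479). The 10 most abundant members (MTD, MTC, ORR1D1, ORR1B1, ORR1A2, MTA_Mm, ORR1F, ORR1E, MT2B and MTEa) had log2 differences between 0.05 for ORR1B1 and 0.20 for ORR1F, with SE of 0.109 to 0.126, and none was called.

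**Figure D4:**
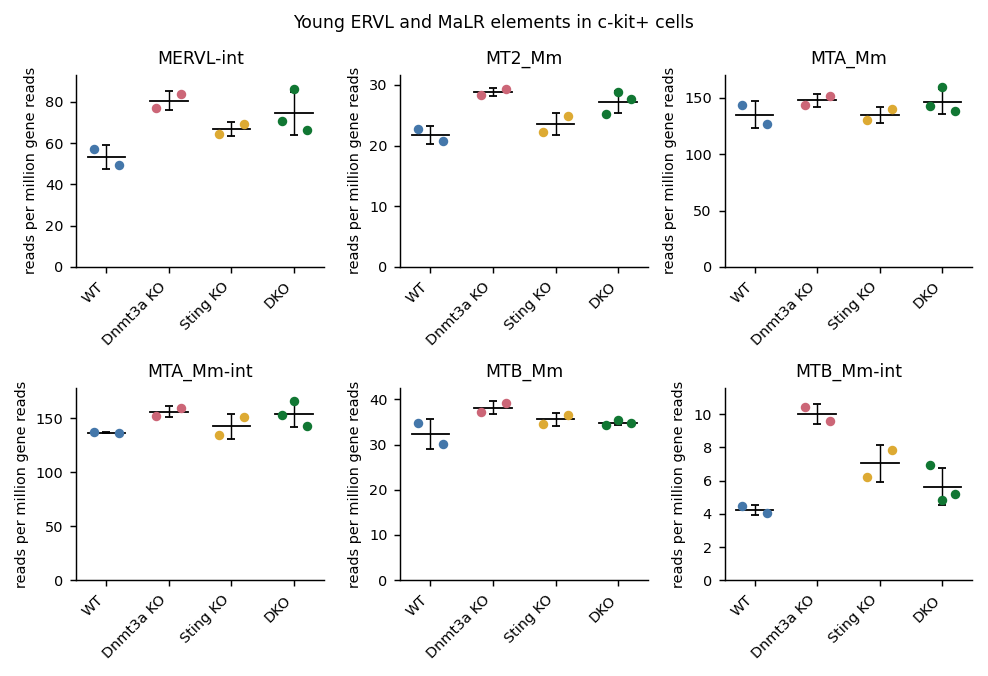
RPM of 6 young ERVL and MaLR elements in the c-kit+ libraries (points), with the mean and SD. MTB_Mm-int stands at 4.03 and 4.45 in wild type and 9.59 and 10.4 in Dnmt3a knockout, while MTA_Mm and MTB_Mm differ far less between genotypes.

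Loss of Sting alone called no member (0 of 180), where 2 of 916 TE subfamilies (0.218%) were called. There were 12 members (6.67%) at an unadjusted p under 0.05, beside 5.90% of all TE subfamilies, and DESeq2 called no member and 1 TE subfamily. MTB_Mm-int held 6.25 and 7.83 RPM in Sting knockout, above both wild-type libraries, with a log2 difference of 0.77 (SE 0.180, edgeR adjusted p = 0.111). Over the alternatives it was 0.60 to 0.93, with adjusted p from 0.0432, when sex was in the model, to 0.683, without wild type 2. MER74C, an old ERVL LTR, held 0.192 and 0.144 in Sting knockout against 0.512 and 0.726 in wild type, from 5 to 29 reads per library. Its log2 difference was -1.83 (SE 0.490, adjusted p = 0.196). The median over the members was 0.02, beside 0.00 over all TE subfamilies.

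Loss of Sting on the Dnmt3a-null background gave lower MTB_Mm-int without a call. The double knockout held 6.93, 4.81 and 5.19 RPM, below both Dnmt3a knockout libraries. The log2 difference was -0.79 (SE 0.157, edgeR adjusted p = 0.0627), and DESeq2 gave an adjusted p of 0.0116. With sex in the model it was -0.51 (adjusted p = 0.998), with library sizes from TE reads -0.76 (0.492), and without Dnmt3a knockout 1 it was -0.70 (0.572). It was called under 5 of 15 alternatives, at adjusted p from 0.00733 to 0.998. Xist marked both Dnmt3a knockout libraries and 1 of the 3 double knockouts. No member of 180 was called, where 1 of 916 TE subfamilies (0.109%) was. At an unadjusted p under 0.05 there were 13 members (7.22%) beside 5.24% of all TE subfamilies, and DESeq2 called 1 member, MTB_Mm-int, among 2 of 916 TE subfamilies. MERVL-int differed by -0.07 (SE 0.126, adjusted p = 0.996), and the ranges of the groups overlapped.

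Whether the effect of Dnmt3a loss on a member depends on Sting was tested by the interaction of both genotypes. MTB_Mm-int had the 1 call among 180 members, where 4 of 916 TE subfamilies (0.437%) were called. Its interaction was -1.56 on the log2 scale (SE 0.239, edgeR adjusted p = 0.00354): Dnmt3a loss went with a log2 change of 1.24 on the wild-type background and of -0.32 (SE 0.160, adjusted p = 0.530) on the Sting-null background. The call was kept with sex in the model. That sex term rests on double knockout 1 alone, so the fit cannot separate sex from genotype. With library sizes from TE reads the interaction was -1.53 and the adjusted p 0.0823. For MERVL-int the interaction was -0.44 (SE 0.187, adjusted p = 0.928).

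Double knockout against Sting knockout called 0 of 180 members and 3 of 916 TE subfamilies (0.328%), and double knockout against wild type called 0 of 180 members and 2 of 916 (0.218%). At an unadjusted p under 0.05 the members numbered 10 (5.56%) and 18 (10%), beside 8.41% and 11.2% of all TE subfamilies. DESeq2 called no member among 2 TE subfamilies in the first comparison and 1, MERVL-int, among 8 in the second. The median log2 difference of the members was 0.12 in both the first comparison and over all TE subfamilies there, and 0.15 beside 0.13 in the second. MT2_Mm held 25.2, 28.8 and 27.7 RPM in the double knockout, above both wild-type libraries, with a log2 difference of 0.37 (SE 0.106, edgeR adjusted p = 0.146). MTB_Mm-int differed there by 0.46 (SE 0.168, adjusted p = 0.309), with double knockout above wild type in all 3 libraries.

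**Figure D5:**
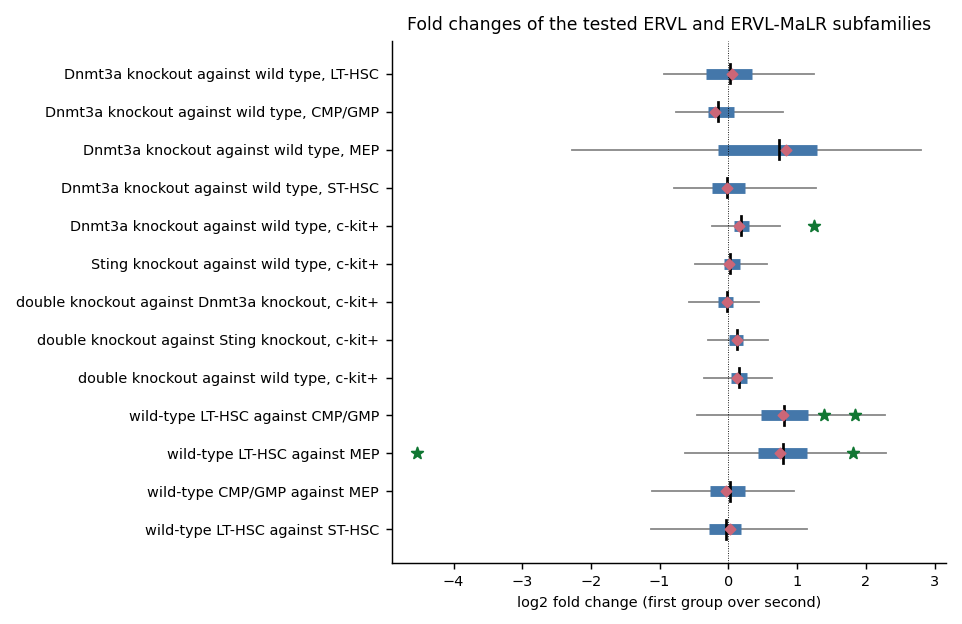
Log2 fold changes of the ERVL and ERVL-MaLR subfamilies tested in each comparison, as median (black line), quartiles (blue bar) and 5th to 95th percentile (grey line), beside the median of all TE subfamilies (red diamond) and the called members (green stars). The medians of members and of all TE subfamilies lie within 0.1 of each other in every comparison drawn, as in c-kit+ Dnmt3a knockout with 0.19 and 0.16.

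In sorted cells no member passed the test for Dnmt3a loss in any population. In LT-HSC, 0 of 175 members and 0 of 904 TE subfamilies (0.0%) were called. No member reached an unadjusted p under 0.05, and DESeq2 called none. The median SE of a member's log2 change was 0.68 there, against 0.21 in c-kit+ cells, so changes as small as those of c-kit+ cells were not detectable in LT-HSC. MERVL-int held 32.3, 84.1, 67.4 and 52.9 RPM in knockout LT-HSC and 74.8, 46.4, 50.3 and 44.5 in wild type. The groups overlapped, with a log2 difference of 0.14 (SE 0.485). MTB_Mm-int held 2.63, 6.68, 7.93 and 4.0 in knockout and 1.99, 0.761, 4.74 and 3.29 in wild type, which also overlapped, with a log2 difference of 1.0 (SE 0.810, edgeR adjusted p = 0.998).

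In CMP/GMP, 0 of 171 members and 0 of 893 TE subfamilies (0.0%) were called. At an unadjusted p under 0.05 there were 8 members (4.68%) beside 6.83% of all TE subfamilies, and DESeq2 called 3 members (LTR33B, MLT1E and MLT1G1) among 6 of 896 TE subfamilies. The median log2 difference was -0.15 for the members and -0.20 for all TE subfamilies. MERVL-int held 14.6, 13.8, 27.9 and 20.3 RPM in knockout and 14.0, 20.9, 26.5 and 25.9 in wild type. MTB_Mm-int held 0.834, 1.03, 4.46 and 3.75 in knockout and 2.46, 2.18, 1.11 and 3.60 in wild type. Neither separated the genotypes, with log2 differences of -0.18 (SE 0.239) and 0.10 (SE 0.512).

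In MEP, 0 of 163 members and 0 of 858 TE subfamilies (0.0%) were called. At an unadjusted p under 0.05 there were 27 members (16.6%) beside 16.4% of all TE subfamilies, and DESeq2 called 5 members (ERVL-int, LTR16B2, LTR50, LTR82A and ORR1B1-int) among 34 of 857 TE subfamilies. The median log2 difference was 0.74 for the members and 0.83 for all TE subfamilies, and it rested on the 3 knockout libraries high in TE reads. Without them, with knockout 1 alone against wild type and its spread taken from the wild-type libraries, the members' median was -0.83. With library sizes from TE reads it was -0.04, and that of all TE subfamilies -0.01. Without knockout 1, 78 of 160 members and 364 of 827 TE subfamilies were called. MT2_Mm held 17.5, 62.5, 78.6 and 71.8 RPM in knockout and 27.0, 22.5 and 30.3 in wild type, so that 1 knockout library lay below and 3 above every wild-type library. MER74C went the other way. It held 29.9, 4.94, 2.80 and 1.97 in knockout and 42.6, 54.6 and 57.5 in wild type, with no overlap and a log2 difference of -2.31 (SE 0.820, edgeR adjusted p = 0.270). Markers of the MEP lineage moved with it, since the 6 markers summed to 3080 to 6382 RPM in knockout and 8187 to 10800 in wild type. Their part in the result was not tested.

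In ST-HSC, where levels were set against TE reads, 0 of 182 members and 0 of 944 TE subfamilies (0.0%) were called. There were 4 members (2.20%) at an unadjusted p under 0.05, beside 5.09% of all TE subfamilies, and DESeq2 called none of either. The median log2 difference was -0.03 for the members and -0.02 for all TE subfamilies. MERVL-int held 576, 461, 838 and 777 reads per 1000000 TE reads in knockout and 899, 408, 633 and 612 in wild type, with overlap. MTB_Mm-int held 88.9, 67.3, 84.0 and 59.3 in knockout and 35.7, 67.2, 46.3 and 66.3 in wild type, with overlap and a log2 difference of 0.50 (SE 0.381, edgeR adjusted p = 0.885). The test of whether the Dnmt3a effect differed between LT-HSC, CMP/GMP and MEP called 0 of 198 members and 0 of 1015 TE subfamilies (0.0%), with 23 members (11.6%) beside 16.5% of all TE subfamilies at an unadjusted p under 0.05. DESeq2 called 1 member, LTR86B2, among 3 of 1015 TE subfamilies.

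Between wild-type populations, 3 members were called. MT-int, an internal part of the MT group, rose in LT-HSC over both progenitor populations. It held 17.97, 17.91, 16.7 and 18.4 RPM in LT-HSC, 5.59, 5.69, 7.04 and 5.57 in CMP/GMP and 4.24, 3.91 and 4.97 in MEP. The groups did not overlap, and the 4 LT-HSC libraries lay close together although their TE reads per gene read differed widely. The log2 difference was 1.39 against CMP/GMP (SE 0.306, edgeR adjusted p = 0.0421) and 1.82 against MEP (SE 0.344, adjusted p = 0.0178). Knockout LT-HSC held 18.6, 40.3, 18.9 and 17.8, the second being a library high in TE reads. ST-HSC held 226 to 474 reads of MT-int per 1000000 TE reads in wild type beside 145 to 431 in LT-HSC, so these overlapped.

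MLT2B3, an old ERVL LTR, also rose in LT-HSC over CMP/GMP. It held 12.1, 7.80, 9.49 and 13.7 RPM in LT-HSC and 2.19, 2.06, 3.64 and 2.63 in CMP/GMP, without overlap. The log2 difference was 1.85 (SE 0.397, edgeR adjusted p = 0.0421). In MEP it held 7.66, 5.19 and 3.39, and the difference from LT-HSC was not called (log2 0.78, SE 0.422, adjusted p = 0.211). In knockout LT-HSC the 4 libraries split, at 2.14, 26.1, 19.4 and 2.68.

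These 2 members were the calls among 188 tested in LT-HSC against CMP/GMP, where 7 of 965 TE subfamilies (0.725%) were called. The members' median log2 difference was 0.81 and that of all TE subfamilies 0.79, so TE subfamilies as a whole had a similar value. With library sizes from TE reads the 2 medians were 0.02 and 0.00. MERVL-int followed the same direction without a call, at 44.5 to 74.8 RPM in LT-HSC and 14.0 to 26.5 in CMP/GMP, without overlap (log2 difference 1.14, SE 0.303, edgeR adjusted p = 0.0589). Set against TE reads, MT-int differed by 0.73 (adjusted p = 0.366) and MLT2B3 by 1.12 (adjusted p = 0.183), and neither was called. Leaving out any 1 CMP/GMP library, or LT-HSC 3 or 4, or MEP 3 or 4, left no member called, as did summing the alike libraries. Leaving out LT-HSC 1 gave 4 members among 29 of 961 TE subfamilies, and leaving out LT-HSC 2 gave 87 among 380 of 953.

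MER74C marked MEP. It held 42.6, 54.6 and 57.5 RPM in wild-type MEP, 1.71, 5.60, 3.43 and 5.60 in CMP/GMP and 0, 5.74, 1.88 and 2.66 in LT-HSC. Wild-type MEP lay far above both other wild-type populations, with no overlap, and in c-kit+ cells the level was 0.144 to 0.726. Knockout MEP ran from 1.97 to 29.9 and overlapped both wild-type CMP/GMP and wild-type LT-HSC. The log2 difference of LT-HSC from MEP was -4.53 (SE 0.810, edgeR adjusted p = 0.0169), and that of CMP/GMP from MEP was -3.68 (SE 0.781, adjusted p = 0.0736). LT-HSC against MEP called 2 of 188 members, MER74C and MT-int, where 6 of 965 TE subfamilies (0.622%) were called, at medians of 0.80 for the members and 0.75 for all. Leaving out MEP 1 or MEP 3 left no member called. Leaving out LT-HSC 2 gave 57 members among 228 of 953 TE subfamilies, and leaving out LT-HSC 1 or 4 gave 4 members each, among 15 of 961 and 8 of 951. CMP/GMP against MEP called 0 of 188 members and 0 of 965 TE subfamilies (0.0%), with 6 members (3.19%) beside 4.46% of all at an unadjusted p under 0.05, and DESeq2 called no member and 4 TE subfamilies. LT-HSC against ST-HSC called 0 of 176 members and 0 of 931 (0.0%), with 8 members (4.55%) beside 3.22% of all at an unadjusted p under 0.05 and none of either by DESeq2.

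Across the groups, MERVL-int was most abundant in c-kit+ cells relative to TE reads, with group means of 1619 reads per 1000000 TE reads in wild type, 2028 in Sting knockout, 2141 in double knockout and 2222 in Dnmt3a knockout. The sorted groups ran from 567.5 in MEP knockout to 840 in LT-HSC knockout, and neighbours among the sorted groups differed by less than their SDs. MTB_Mm-int ran from 41.7 ± 31.1 in wild-type LT-HSC to 277 ± 27.2 in c-kit+ Dnmt3a knockout. Per gene read, wild-type c-kit+ cells did not stand out in MERVL-int. They held 53.3 ± 5.76 RPM (n = 2), beside 54.0 ± 14.1 (n = 4) in wild-type LT-HSC. In Dnmt3a knockout the means were 80.6 ± 4.62 (n = 2) in c-kit+ cells and 59.2 ± 22.0 (n = 4) in LT-HSC. Over the 32 libraries with gene counts, the TE subfamilies most like MERVL-int among 751 were IAPEz-int (Pearson's r of log2 levels 0.887), ZP3AR (0.840) and RLTR10-int (0.837). Those most like MTB_Mm-int were MER99 (0.838), RLTR24B_MM (0.813) and MTB-int (0.779). The points share a library's depth and its gene reads as base, so the values are descriptions.

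Genes linked to the silencing of ERVL or other endogenous retroviruses, and genes linked to the embryonic MERVL programme, were followed as 2 lists. Of the 36 genes on the silencing list, 35 or 36 were tested per comparison. EdgeR called none in any of 9 comparisons at an adjusted p under 0.05. At an unadjusted p under 0.05 there were 0 of 35 in LT-HSC, 6 of 35 in CMP/GMP, 10 of 35 in MEP and 6 of 36 in c-kit+ Dnmt3a knockout, beside 1.17%, 9.06%, 13.0% and 16.4% of all genes. In the other 5 comparisons there were 1 to 4 of 36, beside 7.55% to 16.7% of all genes. DESeq2 called 0 to 2 per comparison, beside 0.0546% to 5.81% of all genes. Without MEP knockout 1 edgeR called 15, beside 24.3% of all genes in that fit. Among all genes the edgeR test on every library called 0.0% in LT-HSC, 0.0% in CMP/GMP, 0.0% in MEP, 0.57% in c-kit+ Dnmt3a knockout, 0.777% in Sting knockout, 0.157% in double against Dnmt3a knockout, 0.0% in double against Sting knockout, 1.28% in double knockout against wild type and 0.15% in the interaction. In c-kit+ Dnmt3a knockout the list's median log2 difference was 0.02, and 21 of 36 genes were positive. Trim28, the corepressor of KRAB zinc finger proteins, held 408 ± 6.94 RPM there and 447 ± 14.6 in wild type (n = 2 each, log2 difference -0.13, SE 0.0679, edgeR adjusted p = 0.360). Setdb1, a histone H3 lysine 9 methyltransferase, held 127 ± 2.23 and 126 ± 0.517 (log2 difference 0.02, SE 0.0797, adjusted p = 0.941). Of 39 genes of the embryonic programme, 35 were in the file and 27 of these had no read in any of the 32 libraries with gene counts. That group includes Zscan4c, Zfp352 and Tcstv3. Duxf3, the Dux gene that activates MERVL, reached at most 4 reads in a library. Eif1a, Nelfa and Sp110 were tested, and edgeR called none of these 3 in the 9 comparisons. They reached up to 379, 177 and 237 RPM in these marrow cells, so their lack of calls does not test the embryonic programme.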

How the data were processed

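Per the labels' protocols, poly(A) RNA was converted and amplified by modified SMART-Seq2. The submitters' processing notes name Trim Galore 0.6.7, HISAT2, featureCounts 2.0.1, DESeq2 1.34.0 and the mm10 genome. The assignment of reads to repeats, the strand setting and the handling of multimapping reads were not stated, and reads shared by related copies can shift between subfamilies. The authors deposited raw counts for 35976 genes and 1146 TE subfamilies in 40 libraries. The 8 gene columns that could not be tied to 1 ST-HSC library were not used, so ST-HSC levels are per 1000000 TE reads.

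Subfamilies were tested with edgeR 4.0.16 (R 4.3.3) by the quasi-likelihood test, with library sizes and TMM factors from gene counts (TE counts for comparisons with ST-HSC), filterByExpr (minimum count 10, total 15) and Benjamini-Hochberg adjustment over all TE subfamilies, at 0.05. All 4 c-kit+ groups, or all wild-type sorted groups with gene counts, shared 1 fit. SE is the absolute log2 fold change divided by the square root of F. Levels are reads per 1000000 gene reads. The scripts were tested on simulated data. Alternatives were DESeq2 1.42.0, RLE factors, no filter, TE library sizes, a replicate block, a term for sex, leaving out each library, leaving out libraries high in TE reads and summing alike libraries, the last 2 chosen after seeing the data, as was the sex term in sorted cells. Named members were MERVL-int, MT2_Mm, MTA_Mm, MTB_Mm and the internal parts of the last 2, the 10 most abundant members, called members at a mean of at least 1 RPM, and members named in the text for a small count or for an alternative's calls. MER74C in Sting knockout and in MEP knockout was described after its values were seen, as were Trim28, Setdb1 and the genes listed without reads. Members and gene lists were chosen with earlier results of these data known.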

Additional observations from a re-analysis of the deposited data

Results flagged for a closer look

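Of 138 groups of 4 libraries examined for 1 library far from the rest, 12 held one. The cut-off was set for about 1 in 20 by chance in independent, normally distributed values. These groups share libraries, and the chance rate in these data was not measured. The ERVL and ERVL-MaLR share of TE reads was low in LT-HSC knockout 2 (7.957%, the next at 10.74%) and in LT-HSC wild type 1 (8.319%, the next at 10.72%), both libraries with over 9 TE reads per 100 gene reads. LT-HSC wild type 1 was also high in MT2_Mm, at 79.91 RPM, and LT-HSC knockout 2 in MT-int, at 40.3.

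MEP knockout 2, the shallowest library, was high in MTB_Mm-int (22.97 RPM, the next at 0.9196), in MTA_Mm-int (88.38) and in MLT2B3 (9.594). MEP knockout 1 was high in MER74C, at 29.94. CMP/GMP knockout 3 was high in ORR1D1 (167.8) and CMP/GMP wild type 3 in MT-int (7.044). ST-HSC knockout 2 was low in MT2_Mm (319.9 reads per 1000000 TE reads) and in ORR1D1 (3042).

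The effect of Dnmt3a loss on MTB_Mm-int differed between the wild-type and Sting-null c-kit+ backgrounds by a log2 value of -1.562, with an edgeR adjusted p of 0.00354. The 2 Dnmt3a knockout libraries lay at 10.4 and 9.59 and the 3 double knockout libraries at 4.81 to 6.93 RPM.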

How the results depend on the processing

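Counts of called members depended on the tool, and the number of all TE subfamilies called in the same fit follows each in brackets. With DESeq2 they were 3 in CMP/GMP (6), 5 in MEP (34), 2 in c-kit+ Dnmt3a knockout (8), 1 in double against Dnmt3a knockout (2), 1 in double knockout against wild type (8), 78 in LT-HSC against CMP/GMP (343), 50 in LT-HSC against MEP (189) and 1 for the effect differing between populations (3). Without the filter on low counts they were 2 in c-kit+ Dnmt3a knockout (13), 1 in double against Dnmt3a knockout (3), 1 in double knockout against wild type (11), 1 in LT-HSC against CMP/GMP (7) and 1 in CMP/GMP against MEP (2). With TE library sizes they were 0 in c-kit+ Dnmt3a knockout (0), 0 in the interaction (0), 1 in LT-HSC against CMP/GMP (4), 1 in LT-HSC against MEP (9) and 1 for the effect differing between populations (2). In LT-HSC against CMP/GMP, RLE factors gave 31 (124) and summing alike libraries 0 (0). A term for sex gave 0 in c-kit+ Dnmt3a knockout (0), 1 in Sting knockout (4) and 32 in LT-HSC against CMP/GMP (163).

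The replicate numbers did not pair the samples by the check used, with correlations of -0.198 to 0.241. A replicate block gave 2 members in c-kit+ Dnmt3a knockout (14), 1 in double against Dnmt3a knockout (5), 1 in double knockout against wild type (15), 10 in LT-HSC against CMP/GMP (48), 22 in LT-HSC against MEP (74) and 1 in CMP/GMP against MEP (5), and MERVL-int differed by 0.0255 in double against Dnmt3a knockout.

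Leaving out 1 library at a time gave 0 to 78 members in MEP (0 to 364), 0 to 4 in c-kit+ Dnmt3a knockout (0 to 19), 0 to 1 in Sting knockout (0 to 5), 0 to 1 in double against Dnmt3a knockout (1 to 5), 0 to 1 in double knockout against wild type (0 to 13), 0 to 1 in CMP/GMP against MEP (0 to 5), 0 to 87 in LT-HSC against CMP/GMP (0 to 380), 0 to 57 in LT-HSC against MEP (0 to 228) and 0 to 33 for the effect differing between populations (0 to 183). MERVL-int ran from -0.218 to 0.0426 in double against Dnmt3a knockout.

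Differences of the summed family, none of which was called, changed sign under some settings. With ERVL alone the level per 1000 gene reads differed by 0.0119 for Sting knockout and -0.0563 for CMP/GMP against MEP, and the share in percentage points by 0.0284, -0.0209 for double against Dnmt3a knockout and -0.0640 respectively. Without MTD the share differed by -0.0100 in double against Dnmt3a knockout. Without the libraries high in TE reads the MEP level differed by -1.48, the MEP share by 0.186 and the LT-HSC share by 0.0803. Leaving out 1 library gave levels of -0.229 to 0.174 for Sting knockout, -0.312 to 0.00157 for double against Dnmt3a knockout, -0.274 to 0.367 for CMP/GMP against MEP and -0.750 to 1.24 for LT-HSC knockout. For shares it gave -0.122 to 0.164 in double against Dnmt3a knockout, -0.0260 to 0.334 in CMP/GMP knockout, -0.644 to 0.694 in LT-HSC knockout, -0.716 to 0.121 in LT-HSC against ST-HSC and -0.471 to 0.288 in ST-HSC knockout. The cause of these changes was not tested.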
